A study of Mus musculus with 6 samples.

Results

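The genes described are the mouse chemokines, the interleukins and the receptors of both, with the cytokine gene Tnf. They were chosen by gene symbol alone, as all rows of the deposited expression table whose symbol starts like a CC, CXC or CX3C chemokine, a chemokine receptor, an atypical chemokine receptor or an interleukin, plus Tnf and Ifng. This rule took 147 of 46959 rows. Of these, 66 reached at least 1 RPKM in at least 2 of the 6 libraries and are described, and 81 did not. RPKM is the number of reads of a gene per kilobase of its length, scaled to the depth of the library, so levels can be compared between genes.

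The libraries hold RNA of cells sorted by fluorescence from islets of adult mice that carried 2 reporters, Ins1-H2b-mCherry, a nuclear red protein driven by an insulin promoter, and Ucn3-eGFP, a green protein driven by the promoter of the maturity hormone urocortin 3. Immature beta cells were positive for mCherry only, mature beta cells were positive for both reporters, and double negative cells carried both transgenes without showing either colour. All 3 groups therefore came from the same bitransgenic islets, which were cultured overnight and pooled over several animals before dissociation with trypsin, and each group has 2 libraries. The study sets immature against mature beta cells, and both against the double negative cells. By the sample labels, replicate 1 of every group is male and replicate 2 female. The design text names pools of females, so the sex behind a replicate number is uncertain.

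Chemokines are small secreted proteins that draw leukocytes along gradients by binding G protein-coupled receptors, and atypical receptors remove or store them without the usual signal. Interleukins act through several receptor families: those of the IL-1 family signal through MyD88 and NF-kappaB, as do the IL-17 receptors by way of another adaptor, while receptors for IL-2, IL-4, IL-6, IL-7 and IL-10 signal through JAK kinases and STAT factors. In islets, resident macrophages are a known source of IL-1 beta, and beta cells are known for a high level of the IL-1 receptor and for making chemokines when they are exposed to IL-1 beta.

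A match to part of an NF-kappaB motif stands close to the start of 6 members. Their promoters are shown because Cxcl1, Cxcl2 and Cxcl3 carry the same letters and lie within 147 kb of chromosome 5 but had very different levels in mature cells. The letters searched were GGGANNTTC on both strands of the 250 bases before the start, with overlapping matches on the 2 strands counted once per gene, in RefSeq promoters of GRCm38.p6. They stood in 6 of the 51 members with a promoter entry and in 999 of all 27025 genes with one, which is 3.7%. The stricter form GGGAATTTC stood in Cxcl1, Cxcl2 and Cxcl3 among these members and in 76 of all genes, or 0.281%. The lines give the 170 bases before each start, 5′ to 3′ on the strand of the gene, with the match in capitals. In Cxcl1, Cxcl2 and Cxcl3 the capitals cover 2 overlapping matches, 1 on each strand.
Cxcl3: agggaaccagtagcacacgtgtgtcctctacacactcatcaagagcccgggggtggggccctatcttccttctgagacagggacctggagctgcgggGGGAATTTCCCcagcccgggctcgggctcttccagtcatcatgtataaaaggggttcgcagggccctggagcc
Cxcl1: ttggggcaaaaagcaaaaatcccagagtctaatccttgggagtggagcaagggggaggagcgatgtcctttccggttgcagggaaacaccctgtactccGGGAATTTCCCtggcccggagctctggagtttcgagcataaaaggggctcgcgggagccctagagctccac
Cxcl2: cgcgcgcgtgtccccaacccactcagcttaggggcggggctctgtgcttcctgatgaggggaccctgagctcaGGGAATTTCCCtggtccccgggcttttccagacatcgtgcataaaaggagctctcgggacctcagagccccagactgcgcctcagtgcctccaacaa
Cxcl10: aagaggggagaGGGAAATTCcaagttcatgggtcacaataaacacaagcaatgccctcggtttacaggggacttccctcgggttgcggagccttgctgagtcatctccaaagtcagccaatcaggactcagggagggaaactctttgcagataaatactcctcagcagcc
Il6: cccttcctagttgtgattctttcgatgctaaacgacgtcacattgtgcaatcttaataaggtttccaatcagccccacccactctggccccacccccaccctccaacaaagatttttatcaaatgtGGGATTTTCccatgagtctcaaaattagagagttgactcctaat
Il1f9: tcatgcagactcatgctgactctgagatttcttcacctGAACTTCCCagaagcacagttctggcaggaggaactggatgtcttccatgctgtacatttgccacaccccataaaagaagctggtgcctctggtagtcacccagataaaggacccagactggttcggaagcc
These stretches lie at chr5:90785931-90786100 (Cxcl3), chr5:90891075-90891244 (Cxcl1) and chr5:90903729-90903898 (Cxcl2) on the plus strand. The Cxcl10 stretch is chr5:92348890-92349059 on the minus strand and the Il6 and Il1f9 stretches are chr5:30012944-30013113 and chr2:24186306-24186475 on the plus strand. The match starts 73 bases before the start of Cxcl3, 71 bases before that of Cxcl1, 97 bases before that of Cxcl2, 159 bases before that of Cxcl10, 44 bases before that of Il6 and 132 bases before that of Il1f9. A match is a run of letters and not a measured binding site.

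The immature libraries were far shallower than the others, with 2393602 and 3448581 reads recovered from the steps of the RPKM values, against 23715983 and 26823706 in mature and 22062109 and 22733052 in double negative libraries. For a gene of 1 kb, 1 read therefore weighed 0.418 and 0.29 RPKM in immature libraries, against 0.0373 to 0.0453 RPKM elsewhere. The sum of 8 beta cell markers was 57400 and 63000 RPKM in immature libraries, 207000 and 222000 in mature and 1500 and 3220 in double negative ones. Ucn3, whose promoter drives the green reporter, had 20.3 and 31.8 RPKM in immature libraries, 93.9 and 97.7 in mature and 1.07 and 2.83 in double negative ones. Double negative cells were rich in alpha cell RNA, with 5 alpha markers at 178000 and 172000 RPKM, and these markers also reached 29100 and 19800 RPKM in immature libraries, against 660 and 866 RPKM in mature libraries. Delta and PP cell markers were also highest in double negative libraries. Markers of some other cells were highest in immature libraries, with 12 macrophage genes at a sum of 1000 and 1030 RPKM, against 59.9 and 60.6 RPKM in mature and 33.0 and 32.1 RPKM in double negative libraries. The 6 ductal genes instead summed to 372 and 399 RPKM in immature libraries, 810 and 884 in mature and 675 and 682 in double negative ones. By limma, 3 ductal genes were higher and 2 lower in immature than in mature cells. The 9 endothelial genes summed to 810 and 761 RPKM in immature libraries, 3.71 and 2.44 in mature and 185 and 196 in double negative ones. The 9 mesenchymal genes summed to 145 and 104 RPKM in immature libraries, 0.45 and 0.482 in mature and 22.1 and 27.8 in double negative ones. The acinar list of 7 genes summed to 7840 and 24800 RPKM in immature libraries, 151 and 105 in mature and 215 and 1850 in double negative ones. All 12 macrophage, 9 endothelial and 9 mesenchymal markers were higher in immature than in mature cells by limma. Lymphocyte markers were near 0: 9 T and NK cell genes summed to 1.59 and 0.954 RPKM in immature libraries, with 6 of them at 0 in both, including Cd3d, Cd3g and Nkg7, and 4 B cell genes summed to 0.714 and 1.25 RPKM. Of 5 neutrophil genes, which summed to 6.89 and 12.2 RPKM in immature libraries, S100a8 and S100a9 made up the sum of 81.6 and 84.9 RPKM in mature libraries, where Csf3r, Ly6g and Retnlg were listed at 0. The part of these other cell types in the results below was not tested, and in sorted bulk RNA fewer cells of a type and less RNA per cell cannot be told apart.

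**Figure D1:**
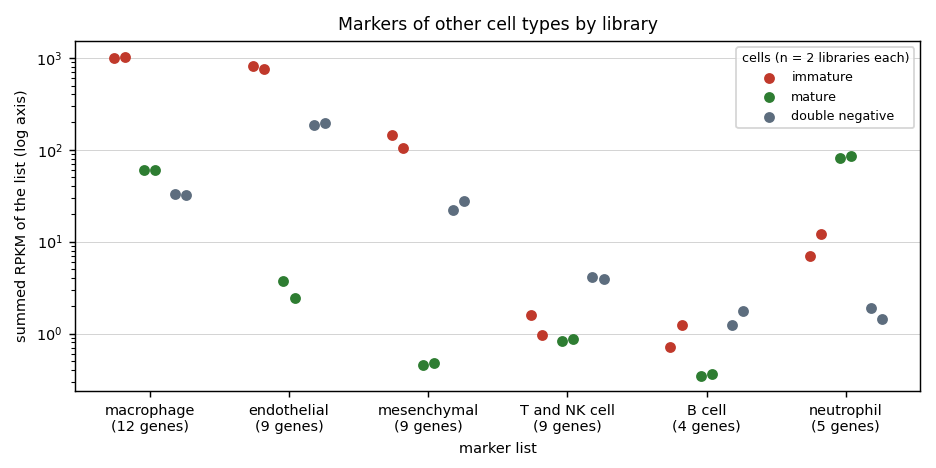
Summed RPKM (log axis) of 6 marker lists in each library, with 2 points per group. The macrophage sum was 1000 and 1030 RPKM in immature libraries and at most 60.6 RPKM elsewhere, and the T and NK cell sum stayed at or below 4.15 RPKM in all 6 libraries.

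Most members were highest in the immature and lowest in mature libraries. The 66 members summed to 1040 and 931 RPKM in immature libraries, 344 and 340 in mature and 415 and 419 in double negative ones. Ccl5, a chemokine that attracts T cells and monocytes, was the highest member in immature libraries, and Il1r1, the signalling receptor of IL-1, was the highest in the other 4. A mean of at least 5 RPKM was reached by 41 members in immature cells, by 11 in mature cells and by 16 in double negative cells. In 49 of 66 members both immature libraries lay above the other 4 libraries, beside 42.4% of all tested genes. This count is a description, because 25 of the 66 members reached 1 RPKM in immature libraries alone and so had to be among the 49. In 43 of 66 both mature libraries lay below the other 4, beside 42.2%. Both immature libraries lay below the other 4 for Il17d, Il1r1 and Il6st, 3 of 66 members beside 6.07% of all genes. Only 22 members had at least 1 RPKM in all 6 libraries.

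Against mature cells, 55 members were higher in immature cells, 5 were lower and 6 did not pass, by limma at an adjusted p under 0.05, where 65.3% of all 13367 tested genes were called, 49.8% as higher and 15.5% as lower. The median difference in mean log2(RPKM + 1), the scale of all differences given here, which understates the change of low genes, was 1.64 for the members and 0.29 for all genes. After quantile normalization 41 members were higher and 13 lower. Against double negative cells, 49 members were higher in immature cells, 3 were lower and 14 did not pass, beside 56.6% of all genes, 45.9% higher and 10.6% lower, with a median of 1.24 against 0.24 for all genes; quantile normalization gave 42 higher and 8 lower. Between mature and double negative cells the count turned: 6 members were higher in mature cells, 27 were lower and 33 did not pass, beside 54.3% of all genes, 23.1% higher and 31.2% lower, with a median of -0.27 against -0.08 for all genes. Here quantile normalization gave 12 higher and 23 lower. The median difference of all genes between immature and mature cells was 0.29 as deposited, 0 after median-ratio rescaling and -0.17 after quantile normalization, so the sign of differences of this size can depend on the scaling. Quantile normalization also ended calls that are given below without it. Between immature and mature cells these were the calls of Ccl8, Il17ra, Il17rc, Il17rd, Il13ra1, Il1f9, Il1rn and Il15ra. Between mature and double negative cells they were those of Cxcl2, Cxcl3, Cxcl14, Il10rb and Il2rg. Between immature and double negative cells they were those of Ackr2, Ccl8 and Il17re. The p-values rest on a common spread per gene, taken from the 2 pooled libraries of all 3 groups together. This spread may be technical in part. The groups were unequal in it. The log2 difference of the 2 libraries had an SD of 0.393 for the immature pair, against 0.132 for the mature pair and 0.222 for the double negative pair. The common spread can thus be too small for comparisons with immature cells. For mature against double negative cells it can be too large.

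These counts are a description, because 25 of the 66 members reached the level of 1 RPKM in immature libraries alone and so had to be higher there. Of the other 41 members, 30 were higher and 5 lower in immature than in mature cells. The share of all genes left by the same exclusion was not computed, so this count cannot be set against that of other genes. Of the 22 members with at least 1 RPKM in every library, 15 were higher and 3 lower, beside 43.1% and 18.1% of the 10159 genes that met the same level. For mature against double negative cells these 22 gave 3 higher and 10 lower, beside 27.0% and 27.4%, and for immature against double negative cells 10 higher and 2 lower, beside 41.7% and 10.4%. The last count is close to the share of all genes.

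**Figure D2:**
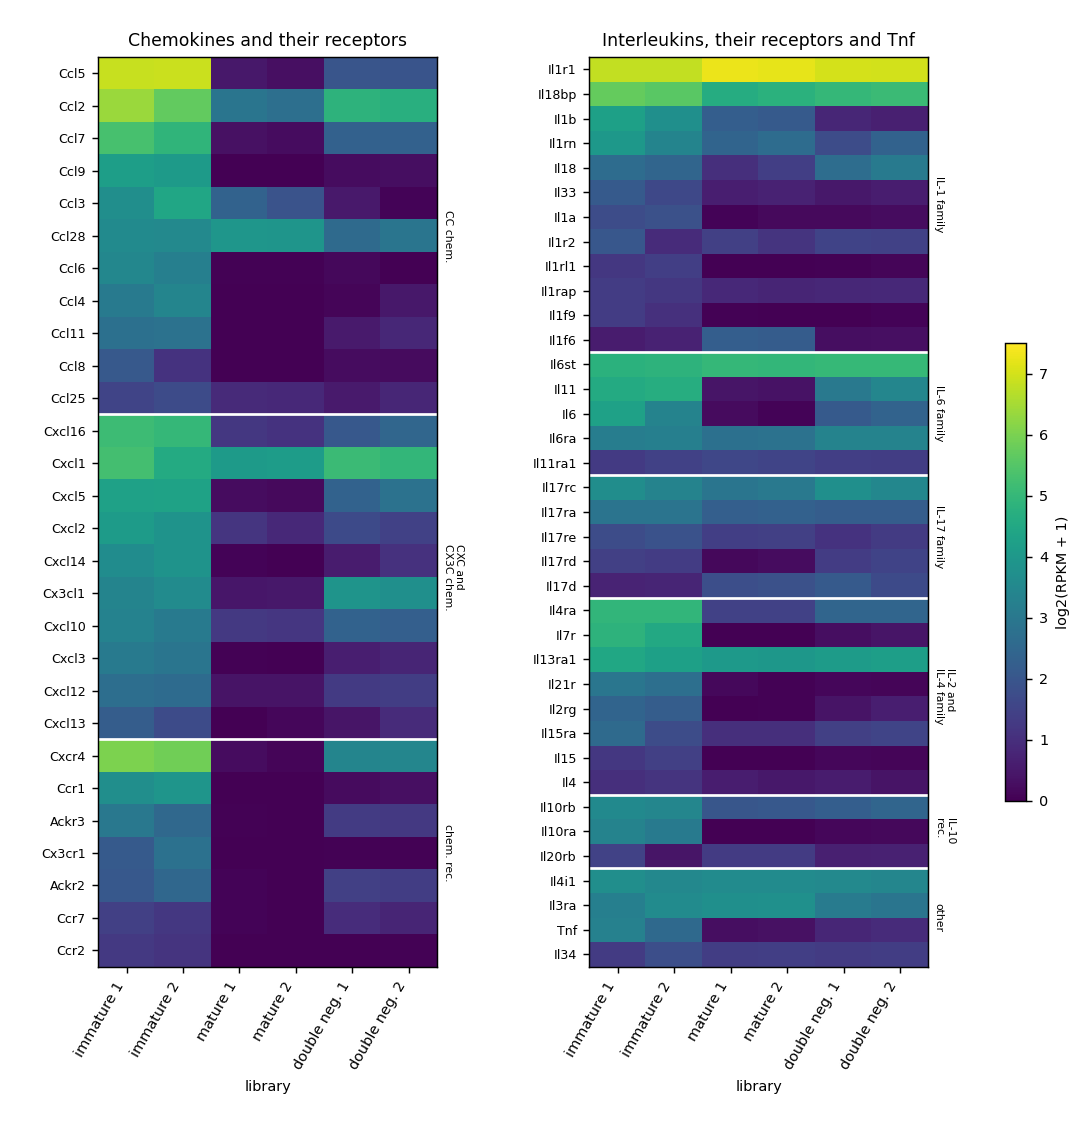
Level of the members named in the text in each library as log2(RPKM + 1), with chemokines and their receptors on the left and interleukins, their receptors and Tnf on the right; white lines separate the classes. The 2 immature columns are the brightest in most rows, while Il1r1, at 112 and 111 RPKM in the immature and 153 and 149 RPKM in mature libraries, is bright throughout.

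**Figure D3:**
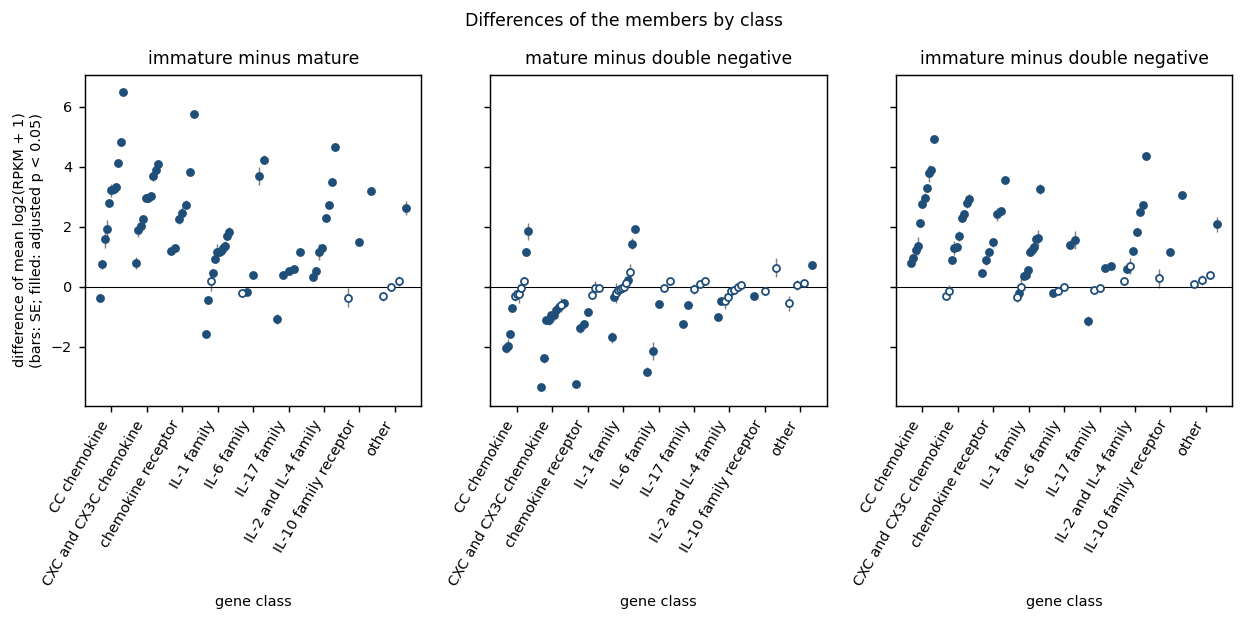
Difference in mean log2(RPKM + 1) of the members named in the text, grouped by class, for immature minus mature, mature minus double negative and immature minus double negative cells; bars are SE and filled points have a limma adjusted p under 0.05. The largest value is 6.49, for Ccl5 between immature and mature cells, and the middle panel lies mostly below 0, where 27 of the 66 members were lower and 6 higher in mature cells.

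Among the CC chemokines, which mainly attract monocytes, T cells and eosinophils, 10 of 11 were higher and 1, Ccl28, was lower in immature cells against mature cells, and all 11 were higher in immature than in double negative cells, beside 49.8% and 45.9% of all genes higher in these comparisons. Of the 11, Ccl11, Ccl25, Ccl4, Ccl6, Ccl8 and Ccl9 reached 1 RPKM in immature libraries alone and so had to be higher there. After quantile normalization these counts were 8 higher and 1 lower against mature cells and 10 higher and 0 lower against double negative cells. Ccl5 (ENSMUSG00000035042.2, chr11:83525778-83530518, minus strand, GRCm38) had 116 and 118 RPKM in immature libraries, 0.395 and 0.233 in mature and 2.97 and 2.84 in double negative ones. The replicates of each group lay close together and the 3 groups did not overlap. Its difference was 6.49 between immature and mature cells (SE 0.08, limma adjusted p = 4.46e-07) and 4.92 between immature and double negative cells (limma adjusted p = 2.64e-06). The mature libraries held 9 and 6 reads of Ccl5 and lay below the double negative libraries, which held 63 and 62 (a difference of -1.57, limma adjusted p = 3.98e-05).

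Ccl2, Ccl7, Ccl11 and Ccl8 lie within 81.2 kb of chromosome 11 (chr11:82035571-82116799). Ccl2, the main ligand of the monocyte receptor Ccr2, had 82.6 and 50.4 RPKM in immature libraries, 6.52 and 5.7 in mature and 27.9 and 25.5 in double negative ones. Ccl7, which attracts monocytes as well, had 39.1 and 29.0 RPKM in immature libraries, 0.263 and 0.186 in mature and 4.07 and 4.06 in double negative ones. Ccl11, an attractant of eosinophils, had 5.79 and 6.16 RPKM in immature libraries, was listed at 0 in each mature library, where 3 reads would give 0.117 and 0.103 RPKM, and had 0.461 and 0.772 RPKM in double negative libraries. All 3 genes showed the same order of groups, with no overlap. Immature exceeded mature cells by 3.21 for Ccl2 (SE 0.22, limma adjusted p = 8.35e-05), 4.82 for Ccl7 (SE 0.14, limma adjusted p = 4.07e-06) and 2.80 for Ccl11 (SE 0.12, limma adjusted p = 1.53e-05). Mature cells were lower than double negative cells by 1.96, 2.05 and 0.69 for these genes (differences of -1.96, -2.05 and -0.69), each of which passed. Ccl8, a monocyte attractant, was barely read: 3.27 and 1.13 RPKM in immature libraries stood for 4 and 2 reads, it was listed at 0 in mature libraries, and the double negative libraries had 2 reads each. Its calls against mature (1.59) and double negative cells (1.36) rest on so few reads, and the second became 0.86 without immature replicate 1 and was lost without double negative replicate 1 or 2 (limma adjusted p = 0.072 and 0.07).

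A second CC group on chromosome 11 holds Ccl5, Ccl9, Ccl6, Ccl3 and Ccl4 within 139 kb (chr11:83525778-83664683). Ccl9 and Ccl6, chemokines of myeloid cells in the mouse, had 17.6 and 16.0 RPKM and 10.2 and 8.4 RPKM in immature libraries. In the mature libraries Ccl9 had 0.0138 and 0.0122 RPKM and Ccl6 0.0235 and 0.0208 RPKM, and in double negative libraries Ccl9 had 0.179 and 0.202 RPKM and Ccl6 0.126 and 0 RPKM. Both were at or below 0.202 RPKM in the other 4 libraries, with differences of 4.13 and 3.33 from mature cells. Ccl3, an attractant of macrophages made by activated myeloid cells, did not share this pattern: it had 12.0 and 20.8 RPKM in immature libraries, 4.18 and 2.77 in mature and 0.414 and 0.0574 in double negative ones. Mature cells were 1.85 above double negative cells (SE 0.29, limma adjusted p = 0.00297) and immature cells 1.93 above mature cells (limma adjusted p = 0.002). Its neighbour Ccl4, a close relative, had 7.6 and 9.66 RPKM in immature libraries, was listed at 0 in each mature library, where 3 reads would give 0.192 and 0.169 RPKM, and had 0.0687 and 0.4 RPKM in double negative libraries. The mature Ccl3 values stood for 76 and 57 reads, against 9 and 6 reads of Ccl5, 1 read each of Ccl9 and Ccl6 in each mature library and 0 of Ccl4.

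**Figure D4:**
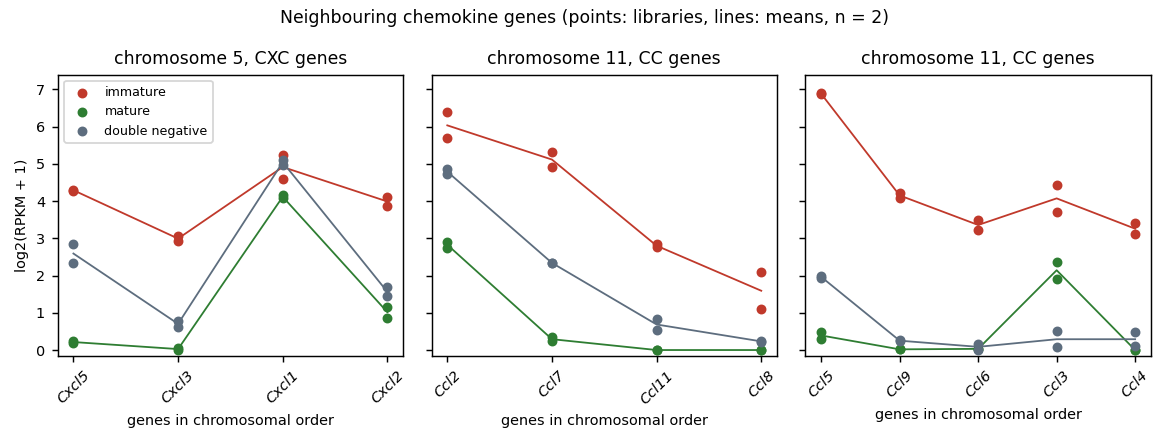
Levels as log2(RPKM + 1) of chemokine genes in their chromosomal order, in the chromosome 5 CXC group and in both chromosome 11 CC groups; points are libraries and lines join group means of 2 libraries. In the right panel Ccl3 stands out in mature libraries at 4.18 and 2.77 RPKM, between Ccl6 at 0.0235 and 0.0208 RPKM and Ccl4 at 0, and in the left panel Cxcl1 is high in all groups.

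Ccl28, an epithelial chemokine of mucosal surfaces (chr13:119623819-119654359, plus strand), was the CC member with its highest values in mature cells: 11 and 10.5 RPKM in immature libraries, 14.2 and 14 in mature and 4.99 and 6.56 in double negative ones. The groups did not overlap. Mature cells were 1.16 above double negative cells (SE 0.12, limma adjusted p = 0.000449), and immature cells lay between them, 0.80 above double negative cells and 0.36 below mature cells (a difference of -0.36, limma adjusted p = 0.0341). The last call was lost without any 1 of the immature or mature libraries, with a limma adjusted p = 0.055 and 0.084 without immature replicates 1 and 2 and 0.133 and 0.121 without mature replicates 1 and 2. Ccl25, a chemokine of gut and thymus, had between 1.88 and 2.28 RPKM in immature libraries, 0.81 and 0.853 in mature and 0.442 and 0.758 in double negative ones, and its difference of 0.75 between immature and mature cells turned to -0.09 after quantile normalization. Ccl25 shares 181 exonic bases with Elavl1 on the opposite strand, and the reads were not stated to be counted by strand.

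All 10 CXC and CX3C chemokines were higher in immature than in mature cells, beside 49.8% of all genes. After median-ratio rescaling 9 were higher. In mature cells 9 of 10 were lower than in double negative cells, beside 31.2% of all genes, and 6 were lower after quantile normalization. Of the 10, Cxcl3 and Cxcl13 reached 1 RPKM in immature libraries alone and so had to be higher there. Cxcl5, Cxcl3, Cxcl1 and Cxcl2, which attract neutrophils through the receptor Cxcr2, lie within 147 kb of chromosome 5 (chr5:90759360-90905938). Cxcl5 had 18.4 and 18.8 RPKM in immature libraries, 0.181 and 0.14 in mature and 4.09 and 6.14 in double negative ones. Cxcl3 had 7.4 and 6.55 RPKM in immature libraries, 0.0362 and 0 in mature and 0.544 and 0.717 in double negative ones. Cxcl2 had 16.4 and 13.5 RPKM in immature libraries, 1.24 and 0.829 in mature and 2.21 and 1.72 in double negative ones. For these 3 genes the groups did not overlap, and immature exceeded mature cells by 4.08, 2.97 and 2.97 (SE 0.16, 0.11 and 0.15).

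Cxcl1 (chr5:90891241-90893115, plus strand) was expressed in all groups, at 37.0 and 23.0 RPKM in immature libraries, 15.9 and 16.8 in mature and 33.6 and 30.5 in double negative ones. It was the chemokine with the highest level in mature cells, and the immature and double negative libraries overlapped. Immature exceeded mature cells by 0.80 (SE 0.20, limma adjusted p = 0.0154), a value that became 0.47 without immature replicate 1 and lost its call without mature replicate 1 or 2 (limma adjusted p = 0.0709 and 0.0565) and after median-ratio rescaling. Mature cells were 0.93 below double negative cells (a difference of -0.93, limma adjusted p = 0.0109), and this call was lost without mature replicate 1 and without double negative replicate 1 or 2 (limma adjusted p = 0.0587, 0.076 and 0.0546). Between immature and double negative cells the difference was -0.13 (SE 0.20, limma adjusted p = 0.627). The 3 genes that share the stricter NF-kappaB letters, Cxcl1, Cxcl2 and Cxcl3, thus had mature means of 16.4, 1.04 and 0.0181 RPKM, and the receptor gene Cxcr2, singled out after its values were seen, was listed at 0 in all 6 libraries.

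Of the other CXC genes, Cxcl16, a chemokine anchored in the membrane of macrophages and endothelium, had 34.0 and 30.7 RPKM in immature libraries, 1.33 and 1.15 in mature and 3.18 and 4.59 in double negative ones. It overlaps Zmynd15 by 552 exonic bases on the opposite strand, and that gene was also highest in immature libraries, at 8.53 and 7.96 RPKM, against at most 0.22 RPKM in the other 4, so the reads of both cannot be told apart. Cxcl14 had 11.5 and 13.4 RPKM in immature libraries, 0.0463 and 0.0204 in mature and 0.497 and 1.11 in double negative ones. Cxcl12, the ligand of Cxcr4 made by stromal cells, had 5.52 and 5.11 RPKM in immature libraries, 0.304 and 0.305 in mature and 1.44 and 1.55 in double negative ones. Immature exceeded mature cells by 3.90 for Cxcl16, 3.69 for Cxcl14 and 2.27 for Cxcl12 (SE 0.15, 0.18 and 0.09). Cxcl10, an interferon-induced attractant of T cells, had 9.09 and 7.6 RPKM in immature libraries, 1.35 and 1.26 in mature and 4.17 and 3.87 in double negative ones. Its 3 groups were separate, with mature cells 1.12 below double negative cells (a difference of -1.12, limma adjusted p = 0.00035). Cxcl13, an attractant of B cells, was low, at 3.63 and 2.27 RPKM in immature libraries and at most 0.88 RPKM elsewhere. The calls for Cxcl2 and Cxcl14 between mature and double negative cells (-0.55 and -0.78) were lost without single libraries: for Cxcl2 without mature replicate 2 or double negative replicate 1 or 2 (limma adjusted p = 0.15, 0.153 and 0.0565), and for Cxcl14 without mature replicate 1 or 2 (0.0587 and 0.0676).

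Cx3cl1, or fractalkine, a membrane-bound chemokine of endothelial and neural cells (chr8:94772009-94782427, plus strand), had close levels in immature and double negative cells, both far above those of mature cells. It had 9.46 and 11.3 RPKM in immature libraries, 0.375 and 0.392 in mature and 13.7 and 12.4 in double negative ones. Mature cells lay below double negative cells (a difference of -3.34, SE 0.11, limma adjusted p = 9.47e-06), the largest fall of any member in that comparison, and immature cells 3.04 above mature cells (limma adjusted p = 6.64e-06). The difference between immature and double negative cells was -0.30 (SE 0.11, limma adjusted p = 0.0523), which did not pass. The 9 endothelial markers summed to 810 and 761 RPKM in immature libraries, 3.71 and 2.44 in mature and 185 and 196 in double negative ones. The part of endothelial and other cells in the Cx3cl1 values was not tested.

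All 8 chemokine receptors passed as higher in immature cells against mature and against double negative cells, beside 49.8% and 45.9% of all genes. Among them, Ccr1, Ccr2, Ccr7 and Cx3cr1 reached 1 RPKM in immature libraries alone and so had to be higher there. The highest value of a receptor in a mature library was 0.187 RPKM. Against double negative cells 7 were higher after median-ratio rescaling and 6 after quantile normalization. Cxcr4, the receptor of Cxcl12 on leukocytes, endothelium and progenitors (chr1:128588199-128592293, minus strand), had 63.5 and 57.9 RPKM in immature libraries, 0.187 and 0.0825 in mature and 9.55 and 9.88 in double negative ones. Its difference of 5.77 between immature and mature cells (SE 0.08, limma adjusted p = 5.64e-07) was second to that of Ccl5, and mature cells lay 3.24 below double negative cells (a difference of -3.24, limma adjusted p = 6.87e-06). Ackr3, an atypical receptor that also takes up Cxcl12, had 6.99 and 4.76 RPKM in immature libraries, 0.0252 and 0.0111 in mature and 1.49 and 1.37 in double negative ones. Both receptors of Cxcl12 and the ligand itself thus had the order immature, double negative, mature.

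Ccr1 and Ccr2 are receptors of inflammatory CC chemokines on monocytes and macrophages. Ccr1, which binds Ccl3 and Ccl5, had 12.1 and 14.1 RPKM in immature libraries, was listed at 0 in each mature library, where 3 reads would give 0.0447 and 0.0395 RPKM, and had 0.16 and 0.249 RPKM in double negative libraries. Ccr2 was low, with 1.37 and 1.18 RPKM in immature libraries, 0 in each mature library and at most 0.0413 RPKM in double negative libraries. The differences between immature and mature cells were 3.82 for Ccr1 and 1.19 for Ccr2 (SE 0.11 each), and neither passed between mature and double negative cells. The 12 macrophage markers were likewise all higher in immature than in mature cells, and their part in these differences was not tested. Cx3cr1, the fractalkine receptor of resident macrophages, had 3.35 and 5.97 RPKM in immature libraries and at most 0.0363 RPKM elsewhere, unlike its ligand. Ackr2, a scavenger of inflammatory CC chemokines, had 3.15 and 4.69 RPKM in immature, at most 0.0454 RPKM in mature and 1.66 and 1.58 RPKM in double negative libraries. Ccr7, a homing receptor of dendritic cells and lymphocytes, stood at 1.69 and 1.32 RPKM in immature libraries on 8 and 9 reads, at most 0.0426 RPKM in mature and 0.917 and 0.712 RPKM in double negative libraries. Its call of 0.46 between immature and double negative cells turned to -0.03 after quantile normalization and was lost without either mature or either double negative library (limma adjusted p from 0.0562 to 0.121).

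The IL-1 family had 9 of its 12 members higher and 2 lower in immature than in mature cells, beside 49.8% and 15.5% of all genes. Of the 12, Il1a, Il1f9, Il1rap, Il1rl1 and Il33 reached 1 RPKM in immature libraries alone and so had to be higher there. After quantile normalization 5 were higher and 3 lower. Il1r1, the receptor that transmits IL-1 (ENSMUSG00000026072.12, chr1:40225080-40317257, plus strand), was the most abundant member of all in mature and double negative cells. It had 112 and 111 RPKM in immature libraries, 153 and 149 in mature and 129 and 126 in double negative ones. The 3 groups did not overlap and all were high. Immature cells lay 0.44 below mature cells (a difference of -0.44, SE 0.05, limma adjusted p = 0.000431), in the opposite direction to most members. Mature cells were 0.24 above double negative cells (limma adjusted p = 0.00586), which turned to -0.02 after quantile normalization and was lost without mature replicate 1 (limma adjusted p = 0.0735). The immature cells were 0.20 below double negative cells (a difference of -0.20, limma adjusted p = 0.0139), a call lost without mature replicate 1 or 2 or double negative replicate 1 (limma adjusted p = 0.0519, 0.0521 and 0.0594).

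Il1b, which encodes the secreted agonist IL-1 beta, had 18.2 and 12.3 RPKM in immature libraries, 3.71 and 3.36 in mature and 0.761 and 0.577 in double negative ones. Immature cells were 1.82 above mature cells (SE 0.18, limma adjusted p = 0.000348) and mature cells 1.44 above double negative cells (SE 0.18, limma adjusted p = 0.00112), so Il1b, like Ccl3, was lowest in double negative cells. The mature values stood for 168 and 172 reads. Of the 12 macrophage markers, 1 was higher, 5 were lower and 6 did not pass between mature and double negative cells. The higher one was Cd68, a lysosomal protein, at 133 and 140 RPKM in immature libraries, 42.2 and 42.3 in mature and 10.4 and 9.24 in double negative ones, and the part of macrophage RNA in the Il1b values was not tested. Il1a, the other IL-1 agonist, had 2.33 and 2.64 RPKM in immature libraries and at most 0.178 RPKM elsewhere. Il1rn, the secreted antagonist of the IL-1 receptor, had 14.9 and 9.38 RPKM in immature libraries, 4.33 and 5.31 in mature and 2.37 and 4.1 in double negative ones. Its difference between immature and mature cells was 1.15 (SE 0.27, limma adjusted p = 0.0112) and was lost without mature replicate 1 (limma adjusted p = 0.0621), and mature and double negative cells did not pass (0.48, limma adjusted p = 0.183).

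Il1f6, which encodes IL-36 alpha, an agonist known from skin and other epithelia, was the member with the largest rise in mature cells (chr2:24215418-24225702, plus strand). It had 0.473 and 0.657 RPKM in immature libraries, 3.77 and 3.5 in mature and 0.205 and 0.249 in double negative ones. The mature values stood for 79 and 83 reads, against 1 and 2 reads in the immature and 4 and 5 reads in double negative libraries. Mature cells were 1.92 above double negative cells (SE 0.11, limma adjusted p = 5.06e-05), and immature cells 1.57 below mature cells (a difference of -1.57, SE 0.11, limma adjusted p = 8.39e-05). With 1 and 2 reads, the immature level was not resolved from that of the double negative cells. The nearby gene Il1f9, which encodes IL-36 gamma, was instead highest in immature cells, at 1.52 and 1.06 RPKM in immature libraries on 6 reads each and at most 0.0534 RPKM elsewhere, and Il1rn lies in the same gene group.

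Il18, a cytokine that induces interferon gamma, had 5.27 and 4.47 RPKM in immature libraries, 1.0 and 1.62 in mature and 5.46 and 7.39 in double negative ones. Mature cells lay 1.68 below double negative cells (a difference of -1.68, SE 0.18, limma adjusted p = 0.000658), and immature cells did not pass against double negative cells (-0.33, limma adjusted p = 0.176). Il18bp, the soluble protein that neutralises IL-18, was higher than Il18 in every library, at 51.6 and 46.4 RPKM in immature libraries, 24.0 and 26.6 in mature and 31.2 and 33.9 in double negative ones. Its exons overlap those of Numa1 by 80 bases on the opposite strand, and Numa1 had between 25.7 and 44.5 RPKM in the 6 libraries. The smaller difference of -0.35 for Il18bp between mature and double negative cells was lost without mature replicate 1 or double negative replicate 2 (limma adjusted p = 0.0964 and 0.0874).

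The other IL-1 family members were below 5 RPKM on average in every group. Il33, an alarmin of the nucleus, had 3.33 and 2.11 RPKM in immature libraries and at most 0.659 RPKM elsewhere, and its receptor gene Il1rl1 had 1.33 and 1.64 RPKM in immature libraries and at most 0.0702 RPKM elsewhere. Ligand and receptor of this pair both reached 1 RPKM in immature libraries alone and so had to be higher there. The Il33 difference from mature cells (1.19) became 0.33 and lost its call after quantile normalization (limma adjusted p = 0.143). Il1r2, a decoy receptor of IL-1, had 3.07 and 0.912 RPKM in immature libraries, 1.66 and 1.19 in mature and 1.85 and 1.73 in double negative ones. Only the immature libraries overlapped the other groups, and Il1r2 passed in no comparison. Il1rap, the shared signalling partner of the family's receptors, had between 0.709 and 1.51 RPKM, and its higher level in immature cells turned to -0.47 against mature and -0.10 against double negative cells after quantile normalization. Its call against mature cells (0.45) was lost without mature replicate 1 or 2 (limma adjusted p = 0.0566 and 0.0948), and that against double negative cells (0.41) without either mature or either double negative library (limma adjusted p from 0.0554 to 0.0834).

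**Figure D5:**
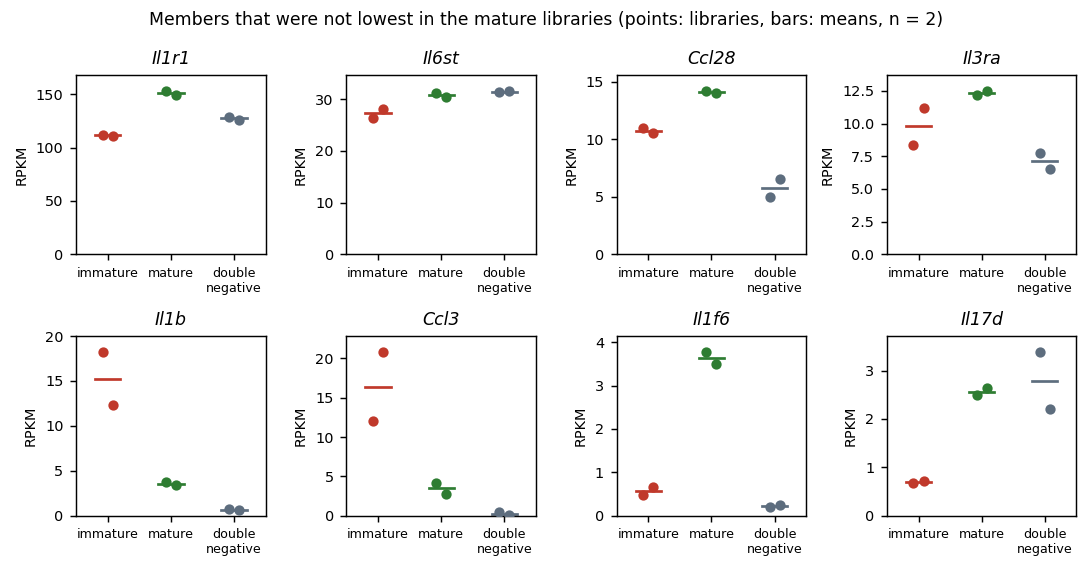
RPKM in each library of 8 members that were not lowest in mature cells, with points for libraries, bars for the means of 2 libraries and every axis from 0. Il1f6 stands at 3.77 and 3.5 RPKM in mature libraries and at most 0.657 RPKM elsewhere, Il1b and Ccl3 are highest in immature and lowest in double negative cells, and Il6st lies between 26.4 and 31.6 RPKM in all libraries.

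In the IL-6 family, 3 of 5 members were higher and 1 lower in immature than in mature cells, beside 49.8% and 15.5% of all genes. Median-ratio rescaling and quantile normalization each gave 2 higher and 2 lower. The cytokines varied far more than the receptors. Il6, an inducer of the acute phase response (chr5:30013114-30019981, plus strand), had 18.4 and 9.2 RPKM in immature libraries, 0.156 and 0.0461 in mature and 3.38 and 4.24 in double negative ones. Il11, a related cytokine of stromal cells (chr7:4772373-4782859, minus strand), had 23.0 and 24.6 RPKM in immature libraries, 0.356 and 0.296 in mature and 7.1 and 9.88 in double negative ones. Both had separate groups in the order immature, double negative, mature, with immature above mature cells by 3.68 for Il6 (SE 0.30, limma adjusted p = 0.000155) and 4.23 for Il11 (SE 0.15, limma adjusted p = 6.63e-06), and mature below double negative cells by 2.12 and 2.82 (differences of -2.12 and -2.82). The Il6 call between immature and double negative cells (1.55) was lost without double negative replicate 1 (limma adjusted p = 0.0553).

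The receptors of these cytokines were expressed in all groups. Il6st, or gp130, the signal transducer shared by the family (chr13:112464070-112510086, plus strand), had 26.4 and 28.1 RPKM in immature libraries, 31.2 and 30.4 in mature and 31.3 and 31.6 in double negative ones. Mature and double negative cells did not pass (-0.03, SE 0.05, limma adjusted p = 0.692). Immature cells were 0.17 below mature cells and 0.20 below double negative cells (differences of -0.17 and -0.20, limma adjusted p = 0.0318 and 0.0221). These small differences lost their calls without any 1 of 5 libraries against mature cells, all but immature replicate 2 (limma adjusted p from 0.0564 to 0.189), and without either mature or either double negative library against double negative cells (limma adjusted p from 0.0666 to 0.0908). Il6ra, the receptor that binds IL-6, had 8.02 and 8.45 RPKM in immature libraries, 5.82 and 6.11 in mature and 9.22 and 9.32 in double negative ones. Mature cells were 0.56 below double negative cells (a difference of -0.56, limma adjusted p = 0.000939), while the difference of 0.41 between immature and mature cells turned to -0.04 after quantile normalization. Il11ra1, the IL-11 receptor, had between 1.4 and 2.0 RPKM in the 6 libraries, passed in no comparison and is uncertain, since near-identical gene copies could share its reads.

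The receptors of the IL-17 family act on epithelial and stromal cells. In this family 4 of 5 members were higher and 1 was lower in immature than in mature cells, beside 49.8% and 15.5% of all genes. After quantile normalization 0 were higher and 2 lower. Il17rc had 11.7 and 9.23 RPKM in immature libraries, 6.6 and 7.12 in mature and 12.2 and 10.1 in double negative ones. Il17ra, its partner in the receptor of IL-17A, had 6.41 and 6.46 RPKM in immature libraries, 3.85 and 3.99 in mature and 3.61 and 3.66 in double negative ones. Both chains of that receptor were thus present in every library, and immature exceeded mature cells by 0.54 for Il17rc (SE 0.13) and 0.60 for Il17ra (SE 0.07). After median-ratio rescaling the Il17rc difference was 0.22 and did not pass (limma adjusted p = 0.178). The Il17rc calls were lost without mature replicate 1, against immature and against double negative cells (limma adjusted p = 0.0774 and 0.0631), and the call against double negative cells also without double negative replicate 1 (0.0693). Il17rd, which also restrains growth factor signalling, had 1.68 and 1.52 RPKM in immature libraries, 0.113 and 0.195 in mature and 1.54 and 1.85 in double negative ones, with mature cells 1.22 below double negative cells (a difference of -1.22, limma adjusted p = 0.000314). Il17d, the only ligand among the 5, had 0.684 and 0.712 RPKM in immature libraries, 2.49 and 2.63 in mature and 3.38 and 2.2 in double negative ones. It was the member with the largest fall in immature cells against double negative cells (-1.14, SE 0.16, limma adjusted p = 0.00192) and lay 1.07 below mature cells (a difference of -1.07, limma adjusted p = 0.00181). Il17re had between 1.14 and 2.72 RPKM, and its difference of 0.41 between immature and mature cells turned to -0.37 after quantile normalization and was lost without mature replicate 1 or 2 (limma adjusted p = 0.115 and 0.0962).

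The 8 members of the IL-2 and IL-4 families, mostly receptor chains of lymphocyte growth factors, were all higher in immature than in mature cells. This stands beside 49.8% of all genes. Of the 8, Il15, Il21r, Il2rg, Il4 and Il7r reached 1 RPKM in immature libraries alone and so had to be higher there. Quantile normalization gave 5 higher and 1 lower. Il7r, the IL-7 receptor of lymphocytes and some macrophages (chr15:9505788-9530176, minus strand), had 28.0 and 22.1 RPKM in immature libraries, 0.0131 and 0.0116 in mature and 0.212 and 0.329 in double negative ones. Its difference was 4.67 between immature and mature cells (SE 0.13, limma adjusted p = 3.37e-06) and 4.35 between immature and double negative cells (limma adjusted p = 1.26e-05). Il4ra, the IL-4 receptor chain (chr7:125552120-125579474, plus strand), had 29.4 and 29.7 RPKM in immature libraries, 1.74 and 1.73 in mature and 4.42 and 4.49 in double negative ones. Replicates of Il4ra were nearly equal, and immature exceeded mature cells by 3.48 (SE 0.06, limma adjusted p = 1.13e-06).

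Il21r, the IL-21 receptor, had 6.66 and 5.67 RPKM in immature libraries, 0.127 and 0.0336 in mature and 0.0954 and 0.0794 in double negative ones. Il2rg, the common chain of several of these receptors, had 4.38 and 3.64 RPKM in immature libraries, at most 0.0312 RPKM in mature and 0.304 and 0.534 RPKM in double negative libraries, and its call of -0.48 between mature and double negative cells was lost without mature replicate 1 or 2 or double negative replicate 2 (limma adjusted p = 0.131, 0.108 and 0.134). Il13ra1, the partner of Il4ra for IL-13, varied far less: it had 21.2 and 18.1 RPKM in immature libraries, 15.7 and 14.8 in mature and 16.2 and 17.3 in double negative ones. All libraries therefore held Il13ra1 at a similar level, and its difference of 0.34 between immature and mature cells (SE 0.09, limma adjusted p = 0.0158) was 0.01 after median-ratio rescaling and lost its call without mature replicate 1 or 2 (limma adjusted p = 0.0533 and 0.0999). Il15 and its receptor chain Il15ra, which presents it on the cell surface, were low, with Il15 at 1.31 and 1.67 RPKM in immature libraries, 0 in both mature and at most 0.095 RPKM in double negative libraries. Il15ra had 5.07 and 2.35 RPKM in immature libraries and between 1.01 and 1.9 RPKM elsewhere, and its difference of 1.17 from mature cells became 0.74 without immature replicate 1 and lost its call without mature replicate 2 (limma adjusted p = 0.0501). Il4, the cytokine, was near 1 RPKM in immature libraries, on 3 and 5 reads, and between 0.323 and 0.515 RPKM elsewhere. Its differences of 0.53 from mature and 0.59 from double negative cells turned to -0.47 and -0.02 after quantile normalization, and were lost without mature replicate 2 and double negative replicate 2 (limma adjusted p = 0.0853 and 0.0512).

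Of the 3 receptors of the IL-10 family, 2 were higher and 0 lower in immature than in mature cells, beside 49.8% and 15.5% of all genes. Quantile normalization gave 2 higher and 1 lower. Il10ra reached 1 RPKM in immature libraries alone and so had to be higher there. Il10ra, the specific IL-10 receptor of leukocytes, had 9.2 and 7.38 RPKM in immature libraries, 0.0121 and 0 in mature and 0.104 and 0.126 in double negative ones. Il10rb, its widely expressed partner, had 10.9 and 9.97 RPKM in immature libraries, 3.06 and 3.15 in mature and 3.7 and 4.49 in double negative ones. The specific chain was thus near 0 outside the immature libraries while the shared chain was present in all, and immature exceeded mature cells by 3.20 for Il10ra and 1.48 for Il10rb (SE 0.12 and 0.10). The Il10rb difference between mature and double negative cells (-0.31, limma adjusted p = 0.0437) became -0.20 without double negative replicate 2 and was also lost without mature replicate 1 or 2 (limma adjusted p = 0.211, 0.181 and 0.147). Il20rb, a receptor chain of IL-20 and its relatives, had 1.79 and 0.345 RPKM in immature libraries, 1.48 and 1.49 in mature and 0.571 and 0.617 in double negative ones. Only the immature libraries overlapped the other groups, and Il20rb passed in no comparison.

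Of the remaining 4 members, 1 was higher and 0 lower in immature than in mature cells, beside 49.8% and 15.5% of all genes. Quantile normalization gave 1 higher and 3 lower. The higher one, Tnf, reached 1 RPKM in immature libraries alone and so had to be higher there. Tnf, a cytokine of activated macrophages (chr17:35199381-35202007, minus strand), had 8.92 and 4.95 RPKM in immature libraries, 0.206 and 0.273 in mature and 0.747 and 0.886 in double negative ones. Immature cells were 2.63 above mature (SE 0.24, limma adjusted p = 0.000235) and 2.08 above double negative cells (limma adjusted p = 0.000872). Il3ra, the IL-3 receptor chain, had 8.39 and 11.2 RPKM in immature libraries, 12.2 and 12.5 in mature and 7.74 and 6.53 in double negative ones. Mature cells were 0.72 above double negative cells (SE 0.14, limma adjusted p = 0.00684), a call lost without double negative replicate 2 (limma adjusted p = 0.0554), and immature cells passed against neither group. Il4i1, an amino acid oxidase named for its induction by IL-4, had 12.0 and 10.4 RPKM in immature libraries, 11.2 and 11.4 in mature and 10.6 and 9.9 in double negative ones. It passed in no comparison and is uncertain, since its exons overlap Tbc1d17 by 1227 bases on the opposite strand and that gene had between 9.26 and 14.3 RPKM. Il34, a second ligand of the macrophage receptor Csf1r, had between 1.46 and 2.52 RPKM in the 6 libraries and passed in no comparison.

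The members higher in mature than in double negative cells were thus Il1f6, Ccl3, Il1b, Ccl28, Il3ra and Il1r1. Those lower in immature than in mature cells were Il1f6, Il17d, Il1r1, Ccl28 and Il6st. Both mature libraries lay above the other 4 for Ccl28, Il11ra1, Il1f6, Il1r1 and Il3ra, which is 5 of 66 members beside 18.7% of all genes, and both double negative libraries did so for Cx3cl1, Il18, Il6ra and Il6st, 4 of 66 beside 12.9%. The mature libraries are shared by 2 of the comparisons, so the same values enter both.

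Of the 81 genes that did not pass, 26 were listed at 0 in every library, 50 stayed below 1 RPKM and 5 reached 1 RPKM in exactly 1 library. Those 5 had their highest values in an immature library: 1.74 RPKM for Il17c, 1.62 RPKM for Ccl22, 1.59 RPKM for both Il10 and Il1rl2 and 1.08 RPKM for Ccl12. Just under the level were Ccl24 at 0.968 RPKM in immature replicate 1 and Ccl20 at 0.944 RPKM in mature replicate 2. Ifng, the interferon of T and NK cells, had a highest value of 0.0376 RPKM, in a double negative library, and 0 in the other 5.

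Genes that transmit cytokine signals were described from fixed lists, to be read beside all tested genes, of which 49.8% were higher and 15.5% lower in immature cells against mature cells. Of 10 tested JAK kinases and STAT factors, 8 were higher and 1 was lower in immature than in mature cells, with a median of 0.58. These counts were 5 and 1 after median-ratio rescaling and 6 and 2 after quantile normalization. Stat2, which carries the interferon signal, was 1.82 higher (25.4 and 23.4 RPKM in immature against 6.39 and 5.94 RPKM in mature libraries) and Stat6, the IL-4 factor, 1.12 higher. Stat3, the main factor of IL-6 signalling, moved the other way, at 54.7 and 55.4 RPKM in immature libraries, 76.1 and 74.4 in mature and 48.1 and 44.6 in double negative ones (-0.44 between immature and mature cells, limma adjusted p = 0.000787). Of the 8 higher genes, Jak1 and Stat5b turned sign after median-ratio rescaling (-0.02 and -0.10), and Stat5a and Stat5b after quantile normalization (-0.48 and -0.10).

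Of 12 suppressors of cytokine signalling, 10 were higher and 2 lower in immature than in mature cells, with a median of 0.53, while 6 were higher and 2 lower after median-ratio rescaling and 3 higher and 4 lower after quantile normalization. Cish was 0.88, Socs4 0.82 and Pias1 0.74 higher, and the phosphatase gene Ptpn11 and Socs7 were lower by 0.58 and 0.30 (differences of -0.58 and -0.30). Of 24 NF-kappaB and adaptor genes, 13 were higher, 4 lower and 7 did not pass, with a median of 0.32 against 0.29 for all genes, so the list was close to all tested genes, of which 49.8% were higher and 15.5% lower. Irak2, a kinase of the IL-1 receptor, was 1.76, Myd88, the adaptor of IL-1 receptors, 0.97 and Irak4 0.95 higher, and Nfkbib, Nfkb2 and Nfkbiz were lower by 0.51, 0.45 and 0.31 (differences of -0.51, -0.45 and -0.31). The NF-kappaB list had 9 higher and 9 lower genes after median-ratio rescaling and 5 higher and 8 lower after quantile normalization, so its direction between immature and mature cells followed the scaling. Against double negative cells 21 of the 24 were higher and 0 lower in immature cells, beside 45.9% and 10.6% of all genes, but 11 and 1 after quantile normalization. Mature cells had 10 higher and 4 lower against double negative cells, beside 23.1% and 31.2% of all genes.

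All but 1 of 7 receptors of TNF and the interferons were higher in immature than in mature cells, with Tnfrsf1b at 26 and 22.6 RPKM in immature libraries, 0.85 and 0.674 in mature and 1.63 and 1.76 in double negative ones, a difference of 3.84 from mature cells. Ifnar2 and Ifngr1 were 1.06 and 1.05 higher, and Tnfrsf1a, the widely expressed TNF receptor, did not pass (0.05, limma adjusted p = 0.431). Of 18 tested cytokines and receptors with other symbols, 13 were higher, 2 lower and 3 did not pass, with a median of 1.5, and 11 were higher and 4 lower after quantile normalization. Beside both lists stand 49.8% of all genes higher and 15.5% lower in immature than in mature cells. The MIF receptor gene Cd74, which is also the invariant chain of MHC class II, was 7.81 higher, and the colony stimulating factor receptors Csf1r and Csf2rb 4.81 and 4.0 higher. Csf3, the granulocyte growth factor, was lower in immature than in mature cells by 1.25 (a difference of -1.25, limma adjusted p = 0.00245), at 14.8 and 9.03 RPKM in immature libraries, 28.6 and 29.2 in mature and 4.68 and 4.39 in double negative ones. Mif, a cytokine stored by many cells, was 0.53 lower (a difference of -0.53).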

How the data were processed

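The authors deposited 1 table of RPKM values per gene for 6 libraries of 3 sorted groups. The submitters' processing notes name STAR 2.5, featureCounts, edgeR 3.14.0 and the build GRCm38.p4. For the annotation release, multi-mapping reads and strand, the settings were not given in the sources used here. The kit named in the labels' protocols does not mark strand.

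From these values, log2(RPKM + 1) was computed for the 13367 genes with at least 1 RPKM in at least 2 libraries. All 3 groups entered 1 limma fit (version 3.58.1, R 4.3.3) with an intensity trend and 3 residual degrees of freedom, and p-values were adjusted by Benjamini-Hochberg over these genes, with a threshold of 0.05. The fit was also run on simulated data that gave every group the same spread apart from counting error. That run therefore cannot test the fit where the groups differ in spread. Reads were recovered by dividing RPKM by the worth of 1 read, with exonic lengths of GENCODE M21. Between 78.2% and 83.8% of low values per library came out whole within 0.02 reads, and intervals or floors from them cover counting error only. Coordinates are of GRCm38.

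Members with a group mean of at least 5 RPKM are given in every library, and the others by level or range. From each signalling list, up to 3 called genes with the largest difference between immature and mature cells in each direction are named. Some genes that this rule would name are not reported here, but are counted among the members and lists. The members and lists were chosen with earlier results of these data known. Other pseudocounts, filters, scalings, designs and left-out libraries were tried, and a voom fit on the recovered reads was added after seeing the data.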

Additional observations from a re-analysis of the deposited data

How the results depend on the processing

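The 3 comparisons gave 145 calls among the members: 60 between immature and mature, 33 between mature and double negative and 52 between immature and double negative cells. Of these, 17, 10 and 10 were lost or reversed under at least 1 alternative. The sign reversed only under quantile normalization: between immature and mature cells for Il6ra (-0.04), Il17re (-0.37), Ccl25 (-0.09), Il4 (-0.47) and Il1rap (-0.47), between mature and double negative cells for Il1r1 (-0.02), and between immature and double negative cells for Il1f6 (-0.15), Il4 (-0.02), Ccr7 (-0.03) and Il1rap (-0.10); the cause was not tested. With a filter of 5 RPKM, which tests fewer genes, the counts for immature cells were 35 higher and 3 lower against mature and 31 higher against double negative cells. Median-ratio rescaling gave 8 members lower in immature cells against mature and 5 against double negative cells. Quantile normalization gave 13 and 8, and 12 members higher in mature than in double negative cells. With only the 2 groups compared in the fit, 1 member was lower in immature than in double negative cells. Leaving out 1 library at a time gave 49 to 56 members higher and 3 to 6 lower in immature cells against mature cells, 5 to 8 higher and 21 to 35 lower in mature than in double negative cells, and 44 to 54 higher and 1 to 6 lower in immature than in double negative cells. The voom fit on recovered reads, over the 51 members with whole reads, gave 43 higher and 4 lower, 9 higher and 30 lower, and 40 higher and 2 lower in the 3 comparisons.

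Same-numbered libraries of the 3 groups share a replicate label and, by the sample labels, a sex, and whether they share a pool of islets was not settled here. Their deviations correlated at -0.01 between immature and mature, -0.11 between mature and double negative and 0.14 between immature and double negative cells. With 2 libraries per group these correlations cannot show that the libraries are independent. The main fit left the pairing out. With the replicate number as a block, 55 members were higher and 4 lower, 6 higher and 26 lower, and 48 higher and 3 lower in the 3 comparisons, and Il6st between immature and mature cells, Il10rb between mature and double negative cells and Il1f6 between immature and double negative cells no longer passed (limma adjusted p = 0.0579, 0.0687 and 0.0645). At the depth of the immature libraries, Ccl8, Ccr7, Il1f6, Il1f9 and Il4 rested on fewer than 10 reads in each.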
